A study of Arabidopsis thaliana with 12 samples.

Results

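The cytosolic chaperonin CCT, also called the T-complex chaperonin or TRiC, was followed through its 9 subunit genes, chosen by locus from the 32833 loci of the deposited table. Transcripts of CCT1 to CCT8, with CCT6 encoded by the pair CCT6A and CCT6B, were measured by poly(A) RNA sequencing in Arabidopsis thaliana seeds of the Col-0 ecotype. Wild-type seeds and seeds labelled atalkbh1a1b, a line mutant for AtALKBH1A and AtALKBH1B, were each sampled dry (day 0) and after 2 days of stratification, in which they lay in sterile water at 4 °C. Each of the 4 groups had 3 libraries. No group was kept in water without cold, so cold, water uptake and time cannot be told apart. The labels do not say which alleles the line carries or whether libraries came from separate plants or seed lots, so p-values measure the spread between these libraries, which may be technical.

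CCT is a stacked pair of rings that closes over an unfolded protein and releases it folded, in a cycle driven by ATP. Each ring takes one copy of every subunit, CCT1 to CCT8, so all of them are needed for a complete particle. Its best known clients are actin and tubulin, the building blocks of the cytoskeleton, which reach it from the ribosome through prefoldin. In Arabidopsis CCT8 is also known for its part in the passage of KNOX transcription factors between cells of the shoot meristem. In yeast CCT2, CCT4 and CCT5 lie on the side of the ring that binds ATP strongly, and CCT3, CCT6 and CCT8 lie on the side that binds it weakly; the subunits are described below in that order.

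The 9 genes lie on chromosomes 1, 3 and 5 and their names matched the deposited table, which describes them as T-complex protein 1 subunits. Coding sequences of different subunits were 56.3% to 61.3% identical and shared no run of 25 bases. CCT6A and CCT6B were 89% identical over their coding sequence and shared a longest run of 35 bases, and 3.91% of the 25-base windows of CCT6A occurred in CCT6B. How reads that match both copies were counted is not given in the sources used here, so the split between these copies is less certain than their sum. CCT4 has a single coding exon and the other members have 9 to 17.

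The promoters of 5 members are shown because they belong to the genes on which the results turn: CCT8 and CCT3, at the ends of the range of responses, CCT5, the most abundant subunit after stratification, and the CCT6 pair. Each run is the 250 bases before the annotated start in the TAIR10.1 assembly (RefSeq annotation), 5′ to 3′ toward the gene. Capitals mark site II elements, which are TGGGCC or TGGGCT on either strand and are found in promoters of many genes of protein synthesis and growth, and the telo box, AAACCCTA on either strand.
CCT8 promoter, chr3:1023894-1024143, plus strand: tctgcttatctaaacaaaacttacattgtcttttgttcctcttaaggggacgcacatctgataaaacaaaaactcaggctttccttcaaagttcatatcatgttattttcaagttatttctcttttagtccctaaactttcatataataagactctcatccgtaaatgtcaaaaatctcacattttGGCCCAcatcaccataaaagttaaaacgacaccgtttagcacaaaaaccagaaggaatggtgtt
CCT3 promoter, chr5:9259029-9259278, minus strand: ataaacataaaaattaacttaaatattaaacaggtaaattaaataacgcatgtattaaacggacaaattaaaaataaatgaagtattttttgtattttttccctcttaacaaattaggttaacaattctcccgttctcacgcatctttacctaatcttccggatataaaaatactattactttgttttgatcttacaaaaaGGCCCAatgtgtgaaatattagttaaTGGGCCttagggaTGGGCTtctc
CCT5 promoter, chr1:8688248-8688497, minus strand: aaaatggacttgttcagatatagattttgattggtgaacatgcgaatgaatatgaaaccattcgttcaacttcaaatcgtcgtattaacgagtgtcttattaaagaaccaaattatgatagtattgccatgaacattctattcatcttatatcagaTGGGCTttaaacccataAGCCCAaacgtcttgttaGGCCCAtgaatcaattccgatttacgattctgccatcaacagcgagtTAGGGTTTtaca
CCT6A promoter, chr3:532613-532862, minus strand: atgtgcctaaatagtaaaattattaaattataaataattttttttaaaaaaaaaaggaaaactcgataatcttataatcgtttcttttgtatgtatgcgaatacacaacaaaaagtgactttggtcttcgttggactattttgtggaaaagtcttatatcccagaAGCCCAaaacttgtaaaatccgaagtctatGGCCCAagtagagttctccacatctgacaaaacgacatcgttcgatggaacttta
CCT6B promoter, chr5:5251180-5251429, minus strand: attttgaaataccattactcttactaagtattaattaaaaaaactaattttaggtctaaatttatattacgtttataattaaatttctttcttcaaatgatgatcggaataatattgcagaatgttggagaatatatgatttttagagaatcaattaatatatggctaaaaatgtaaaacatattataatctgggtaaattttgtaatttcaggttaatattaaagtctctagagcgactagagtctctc

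A site II element was present in 6 of the 9 windows (CCT1, CCT3, CCT4, CCT5, CCT6A and CCT8), against 19.2% of 27443 promoters of the same length. CCT8 carried 1 match, 64 bases before its start. CCT3 carried 3, the nearest 10 bases before its start. CCT6A carried 2 and its copy CCT6B carried none, so the pair differs in these letters although the coding sequences are alike. The telo box occurred in 4.49% of promoters and, among the members, in CCT5 alone, 12 bases before its start. TATAAA occurred in 5 members (CCT1, CCT2, CCT3, CCT6A and CCT6B) and in 47.3% of promoters. Neither ACGTG, the core of the abscisic acid response element, present in 22.9% of promoters, nor the perfect heat shock element, present in 0.386%, was found in any member's window. A match of letters is a description and not evidence of binding.

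The table gives RPKM, which scales reads by transcript length and library depth, and the steps between its low values placed 17.75 to 22.99 M reads behind each library. Nuclear ribosomal RNA took 3.05% to 5.91% of reads in 8 libraries but 15.4% in wild-type stratified library 3, 10.8% in mutant-labelled dry library 2, and 15.1% and 29.3% in mutant-labelled stratified libraries 1 and 3. Since RPKM is a share of the library, such reads lower every other gene there. Transcripts of 5 seed maturation genes (CRU1, OLEO1, EM1, EM6 and PAP85) summed to 48995.4 to 73029.5 RPKM in dry libraries and to 4393.2 to 19709.6 RPKM in stratified ones. They were highest among wild-type stratified libraries in library 3, at 19709.6 RPKM against 5559.1 and 4393.2 RPKM, and among mutant-labelled stratified libraries in library 2, at 18549.3 RPKM against 11903.6 and 6467.8 RPKM. Which loci ALKBH1A and ALKBH1B stand for is not stated in the sources used here; of 3 loci of the family, AT5G01780 stood at 4.22 to 6.69 RPKM in the 6 wild-type libraries and 0.178 to 0.499 RPKM in the 6 mutant-labelled ones, AT1G11780 at 4.44 to 15 and 4.41 to 13 RPKM, and AT3G14140 at no more than 0.131 RPKM in any library. The libraries are therefore called mutant-labelled.

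Stratification raised the transcripts of all 9 CCT subunits in both genotypes. The increase ran from 2.39-fold (CCT3) to 9.98-fold (CCT8) in wild-type means and from 2.54-fold (CCT3) to 8.27-fold (CCT8) in mutant-labelled means. All 9 members passed the test in each genotype (limma on log2(RPKM + 1), Benjamini-Hochberg adjusted over 15145 genes, threshold 0.05), and no stratified library overlapped a dry library of its genotype for any member. A rise in RPKM was common in these seeds: 49.8% of all genes tested rose in wild-type and 43.4% in mutant-labelled seeds. Of all genes, 55% and 44.8% were higher without overlap of libraries. The balance of rises and falls depended on scaling. With each library centred on its median gene, 5870 genes passed as higher and 5561 as lower in wild-type seeds. In mutant-labelled seeds those counts were 4981 and 5121. The median log2 change of the members was 2.15 in wild-type seeds, beside 0.64 for all genes tested, and 2.07 beside 0.50 in mutant-labelled seeds. Markers of seed parts moved as well. The endosperm genes moved in opposite directions: EPR1 fell (log2 change -1.94 ± 0.48 in wild-type and -1.80 ± 0.48 in mutant-labelled seeds) and MAN7 rose (3.10 ± 0.40 and 2.77 ± 0.40), and their summed level, almost all of it EPR1, was 1681.4 to 2744.3 RPKM in dry and 334 to 1281.8 RPKM in stratified libraries. The summed level of the seed coat genes MUM4 and TT10 went from at most 0.467 to at most 3.28 RPKM, and that of 3 seedling and leaf genes (RBCS1A, LHCB1.3 and LHB1B1) from 9.24 to 19.4 RPKM to 46.7 to 380 RPKM, with LHB1B1 at or near 0 in every library. Their part in the CCT values was not tested. In bulk seeds, more cells of a type and more RNA per cell cannot be told apart.

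**Figure D1:**
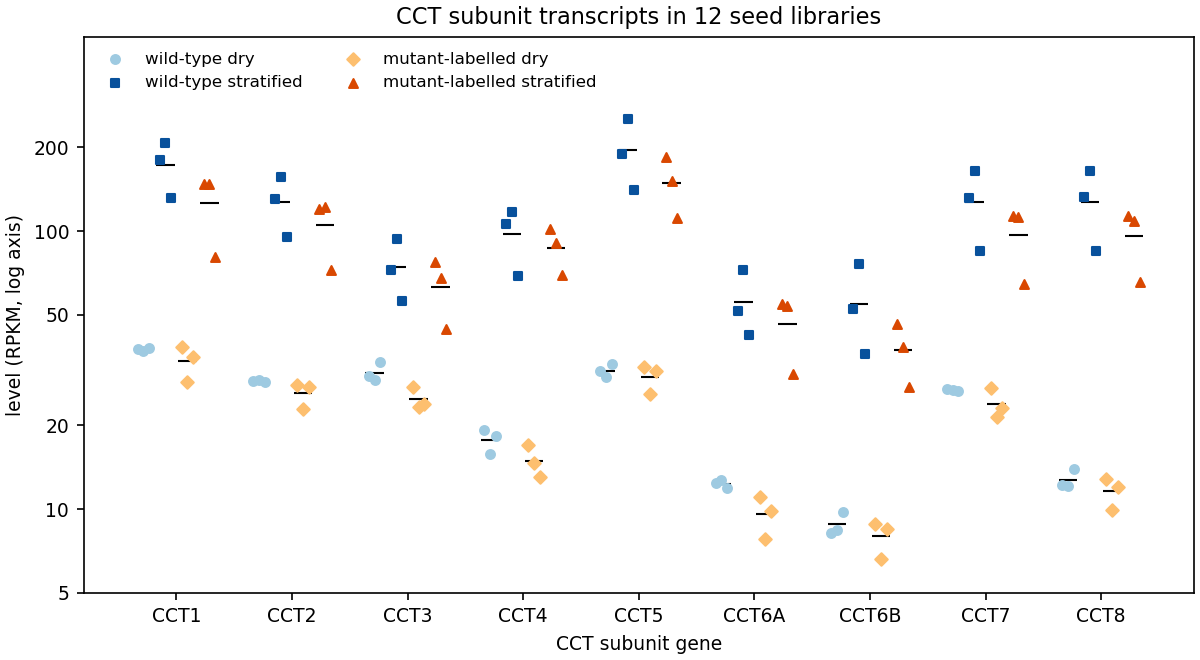
Level of each CCT subunit gene (RPKM, log axis) in the 12 libraries; points are libraries in replicate order from left to right within a group, and black bars are group means of 3 libraries. For every gene all 6 stratified libraries lie above all 6 dry libraries.

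The subunits on the side of the ring known in yeast for strong ATP binding rose 4.01- to 6.17-fold. CCT4 (AT3G18190, 3:6232108-6234183, plus strand) stood at 19.2, 15.8 and 18.3 RPKM in wild-type dry libraries 1, 2 and 3 and at 106, 117 and 69.2 RPKM in wild-type stratified ones. In mutant-labelled seeds CCT4 stood at 17.0, 14.6 and 13.1 RPKM dry and at 102, 90.4 and 69.3 RPKM stratified. The lowest stratified library was thus far above the highest dry one in both genotypes. For CCT4 the log2 change was 2.36 ± 0.27 (SE) in wild-type seeds (limma adjusted p = 9.68e-07) and 2.46 ± 0.27 in mutant-labelled seeds (limma adjusted p = 1.26e-06).

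CCT2 (AT5G20890, 5:7086653-7090169, minus strand) stood at 28.9, 29.1 and 28.7 RPKM in wild-type dry libraries and at 130, 157 and 95.3 RPKM in wild-type stratified ones. In mutant-labelled seeds CCT2 stood at 27.9, 22.9 and 27.6 RPKM dry and at 120, 122 and 72.7 RPKM stratified. The 3 wild-type dry libraries had an SD of 0.196 RPKM and the 3 stratified ones of 30.9 RPKM, and library 3 was the lowest stratified library in each genotype. The log2 change of CCT2 was 2.07 ± 0.29 in wild-type (limma adjusted p = 6.39e-06) and 1.93 ± 0.29 in mutant-labelled seeds (limma adjusted p = 2.4e-05).

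CCT5 (AT1G24510, 1:8685271-8688247, minus strand), whose promoter holds both the telo box and site II elements, became the most abundant subunit transcript. It stood at 31.3, 29.9 and 33.3 RPKM in wild-type dry libraries and at 190, 254 and 141 RPKM in wild-type stratified ones. In mutant-labelled seeds CCT5 stood at 32.5, 25.9 and 31.3 RPKM dry and at 184, 152 and 111 RPKM stratified. The value of 254 RPKM, in wild-type stratified library 2, was the highest of any member in any library and rested on 11947 reads. In log2 units CCT5 rose by 2.55 ± 0.29 in wild-type (limma adjusted p = 8.61e-07) and 2.25 ± 0.29 in mutant-labelled seeds (limma adjusted p = 6.42e-06).

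CCT1 and CCT7 rose 3.69- to 4.72-fold. CCT1 (AT3G20050, 3:6998159-7002435, minus strand), the founding member for which the T-complex proteins were named in mouse, was the highest subunit in dry seeds, at 37.7, 36.9 and 38.0 RPKM in wild-type and 38.3, 28.7 and 35.2 RPKM in mutant-labelled libraries. After stratification CCT1 stood at 180, 208 and 131 RPKM in wild-type and at 148, 148 and 80.9 RPKM in mutant-labelled libraries. The third stratified library was the lowest in each genotype but still above all dry ones. The log2 change of CCT1 was 2.15 ± 0.30 in wild-type (limma adjusted p = 7.37e-06) and 1.81 ± 0.30 in mutant-labelled seeds (limma adjusted p = 7.41e-05).

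CCT7 (AT3G11830, 3:3732628-3736471, plus strand), the eta subunit, stood at 27.1, 26.9 and 26.5 RPKM in wild-type dry libraries and at 131, 164 and 84.8 RPKM in wild-type stratified ones. In mutant-labelled seeds CCT7 stood at 27.3, 21.4 and 23.1 RPKM dry and at 113, 112 and 64.3 RPKM stratified. Its mean lay close to that of CCT2 in each of the 4 groups, and dry and stratified libraries did not overlap. CCT7 changed on the log2 scale by 2.15 ± 0.30 in wild-type (limma adjusted p = 8.26e-06) and 1.93 ± 0.30 in mutant-labelled seeds (limma adjusted p = 4.34e-05).

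The side of the ring known in yeast for weak ATP binding held both the largest and the smallest response. CCT8 (AT3G03960, 3:1024144-1027891, plus strand), the subunit linked to movement of KNOX proteins, stood at 12.2, 12.1 and 13.9 RPKM in wild-type dry libraries and at 133, 164 and 84.5 RPKM in wild-type stratified ones. In mutant-labelled seeds CCT8 stood at 12.8, 9.96 and 12 RPKM dry and at 113, 109 and 65.6 RPKM stratified. From a level close to that of CCT6A in dry seeds it reached that of CCT2 and CCT7. The log2 change of CCT8 was 3.17 ± 0.30 in wild-type (limma adjusted p = 8.62e-08) and 2.91 ± 0.30 in mutant-labelled seeds (limma adjusted p = 4.7e-07).

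CCT3 (AT5G26360, 5:9255053-9259028, minus strand), the gamma subunit, was among the higher transcripts in dry seeds and changed least. It stood at 30.0, 29.1 and 33.7 RPKM in wild-type dry libraries and at 72.2, 93.6 and 56.1 RPKM in wild-type stratified ones. In mutant-labelled seeds CCT3 stood at 27.4, 23.3 and 23.8 RPKM dry and at 77.2, 67.8 and 44.4 RPKM stratified. The groups did not overlap, but the lowest stratified value was only moderately above the highest dry one. On the log2 scale CCT3 rose by 1.20 ± 0.28 in wild-type (limma adjusted p = 0.00107) and 1.28 ± 0.28 in mutant-labelled seeds (limma adjusted p = 0.000923). Its size depended on scaling: with a TMM-style factor for each library the change of CCT3 was 0.43 in wild-type and 0.68 in mutant-labelled seeds and still passed the test.

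CCT6A (AT3G02530, 3:528526-532612, minus strand), zeta 1, stood at 12.4, 12.7 and 11.9 RPKM in wild-type dry libraries and at 51.5, 72.6 and 42.4 RPKM in wild-type stratified ones. In mutant-labelled seeds CCT6A stood at 11.1, 7.80 and 9.86 RPKM dry and at 54.8, 53.7 and 30.6 RPKM stratified. Its log2 change was 2.05 ± 0.29 in wild-type (limma adjusted p = 7.29e-06) and 2.13 ± 0.29 in mutant-labelled seeds (limma adjusted p = 8.93e-06). The rise of this copy was thus close to that of the family median in both genotypes.

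CCT6B (AT5G16070, 5:5247354-5251179, minus strand), zeta 2, was the lowest transcript of the family in the mean of every group. It stood at 8.21, 8.42 and 9.80 RPKM in wild-type dry libraries and at 52.3, 75.9 and 36.2 RPKM in wild-type stratified ones. In mutant-labelled seeds CCT6B stood at 8.83, 6.60 and 8.51 RPKM dry, the least deeply read values of the family with 233 to 307 reads, and at 46.4, 38.4 and 27.4 RPKM stratified. The log2 change of CCT6B was 2.45 ± 0.29 in wild-type (limma adjusted p = 1.24e-06) and 2.07 ± 0.29 in mutant-labelled seeds (limma adjusted p = 1.38e-05). Both copies therefore rose, and the difference between their responses is taken up below as a share.

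**Figure D2:**
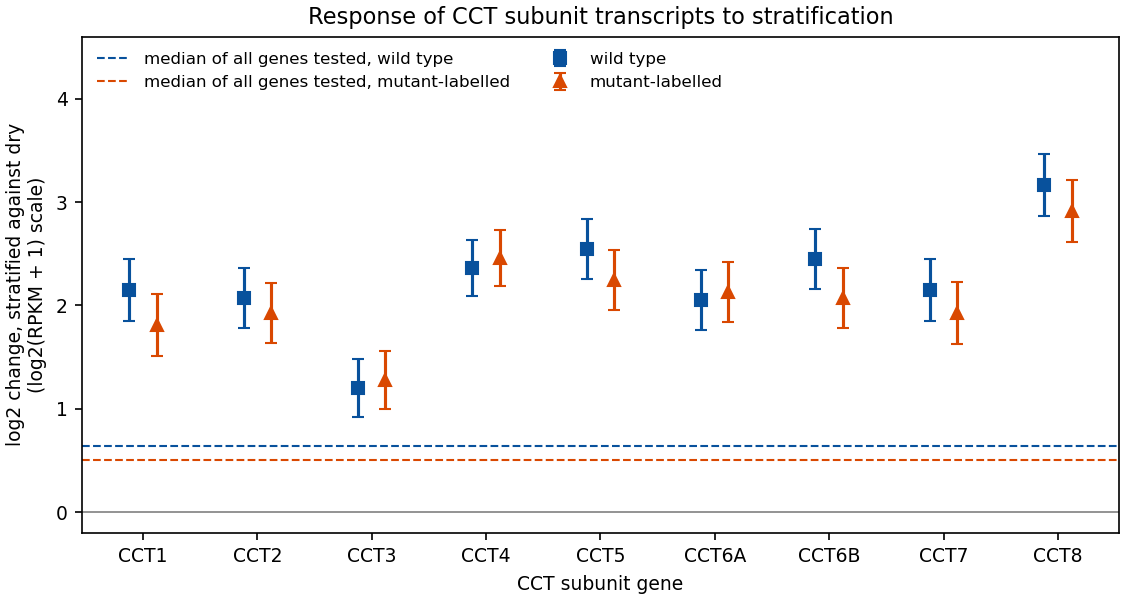
Log2 change of each CCT subunit gene, stratified against dry, on the log2(RPKM + 1) scale in wild-type and mutant-labelled seeds; bars are ± 1 SE of the limma fit (3 libraries a group) and dashed lines are the median of all 15145 genes tested. All 9 genes lie above both dashed lines, with CCT8 highest and CCT3 lowest in each genotype.

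Because so many genes rose in RPKM, the change of the family was set against the whole distribution. The median member lay at percentile 86.2 of all genes tested in wild-type and 90.7 in mutant-labelled seeds, and the lowest member, CCT3, at percentiles 67.0 and 77.3. With each library centred on its median gene, the median of all genes fell to 0.06 in wild-type and 0.03 in mutant-labelled seeds, while the median of the members stood at 1.58 and 1.60. All 9 members passed as higher in both genotypes under that scaling as well, where 5870 and 4981 of 15145 genes did.

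Within the family the order of the levels shifted with stratification. In dry wild-type seeds CCT1 was highest (37.5 ± 0.538 RPKM, SD, n = 3), above CCT5 (31.5 ± 1.72), CCT3 (30.9 ± 2.45), CCT2 (28.9 ± 0.196), CCT7 (26.8 ± 0.305), CCT4 (17.8 ± 1.78), CCT8 (12.7 ± 1.02), CCT6A (12.3 ± 0.406) and CCT6B (8.81 ± 0.863). Libraries of neighbours in that order overlapped for CCT5 with CCT3 and for CCT8 with CCT6A, and not for the others. In dry mutant-labelled seeds the order was CCT1 (34.1 ± 4.91 RPKM), CCT5 (29.9 ± 3.50), CCT2 (26.1 ± 2.77), CCT3 (24.8 ± 2.24), CCT7 (23.9 ± 3.02), CCT4 (14.9 ± 1.99), CCT8 (11.6 ± 1.47), CCT6A (9.60 ± 1.69) and CCT6B (7.98 ± 1.21). There the neighbours CCT7 and CCT4, and CCT4 and CCT8, were apart and all others overlapped.

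After stratification CCT5 was highest in both genotypes, at 195 ± 56.8 RPKM in wild-type and 149 ± 36.6 RPKM in mutant-labelled seeds. In wild-type seeds CCT1 (173 ± 38.7 RPKM), CCT2 (127 ± 30.9), CCT8 (127 ± 40.0), CCT7 (127 ± 39.9), CCT4 (97.3 ± 25), CCT3 (74.0 ± 18.8), CCT6A (55.5 ± 15.5) and CCT6B (54.8 ± 20) followed. In mutant-labelled seeds CCT1 (126 ± 38.8 RPKM), CCT2 (105 ± 27.8), CCT7 (96.5 ± 27.9), CCT8 (95.9 ± 26.3), CCT4 (87.2 ± 16.6), CCT3 (63.1 ± 16.9), CCT6A (46.4 ± 13.7) and CCT6B (37.4 ± 9.58) followed. The libraries of all neighbours in these orders overlapped. Within libraries, CCT2 lay above CCT8, CCT8 above CCT7 and CCT6A above CCT6B in 1 of 3 wild-type libraries each. CCT5 lay above CCT1, and CCT4 above CCT3, in each of the 3 libraries of both stratified groups.

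Summed over the 9 genes, CCT transcripts stood at 207, 201 and 214 RPKM in wild-type dry libraries, at 1045.8, 1305.1 and 740 RPKM in wild-type stratified ones, at 203, 161 and 184 RPKM in mutant-labelled dry ones and at 958, 893 and 566 RPKM in mutant-labelled stratified ones. Among the 6 stratified libraries, wild-type library 2 was highest for 9 of 9 members and mutant-labelled library 3 lowest for 8 of 9. Those libraries had the lowest and the highest ribosomal RNA share, 3.05% and 29.3%, but mutant-labelled stratified library 1, with 15.1%, had a higher sum than library 2, with 3.78%. Among the 6 dry libraries, mutant-labelled library 2, with 10.8% ribosomal RNA, was lowest for 8 of 9. The part of ribosomal RNA in these orders was not tested as a cause; the values with it left out are given with the processing.

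A share of the summed level within a library does not depend on how that library was scaled. The share of CCT8 went from 5.90%, 6.01% and 6.50% in wild-type dry libraries to 12.7%, 12.5% and 11.4% in stratified ones. In mutant-labelled seeds the share of CCT8 went from 6.31%, 6.18% and 6.51% to 11.8%, 12.3% and 11.6%. CCT8 thus took about as large a share as CCT2 after stratification, where dry seeds had less of it than of CCT4.

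The share of CCT3 moved the other way, from 14.5%, 14.5% and 15.8% in wild-type dry libraries to 6.91%, 7.17% and 7.58% in stratified ones. In mutant-labelled seeds the share of CCT3 went from 13.5%, 14.5% and 12.9% to 8.06%, 7.59% and 7.85%. Dry and stratified libraries lay well apart for both genes. CCT5 went from a mean share of 15.2% ± 0.342 (SD, n = 3) to 18.8% ± 0.667 in wild-type and from 16.3% ± 0.530 to 18.6% ± 1.36 in mutant-labelled seeds. CCT2 went from 14.0% ± 0.540 to 12.4% ± 0.424 and from 14.3% ± 0.629 to 13.0% ± 0.575.

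These 4 genes were the ones whose dry and stratified shares did not overlap in either genotype. For CCT5 and CCT2 the mutant-labelled libraries almost touched. The share of CCT5 was 17%, as rounded, in both dry library 3 and stratified library 2. That of CCT2 was 13.7% in dry library 1 and 13.6% in stratified library 2. CCT1 (18.6% to 15.4%) and CCT4 (8.18% to 11.0%) were without overlap in mutant-labelled seeds alone, and CCT6B (4.25% to 5.24%) in wild-type seeds alone. CCT6A and CCT7 overlapped in both. The shares were not tested, since the 9 sum to a fixed total and one moves with another.

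**Figure D3:**
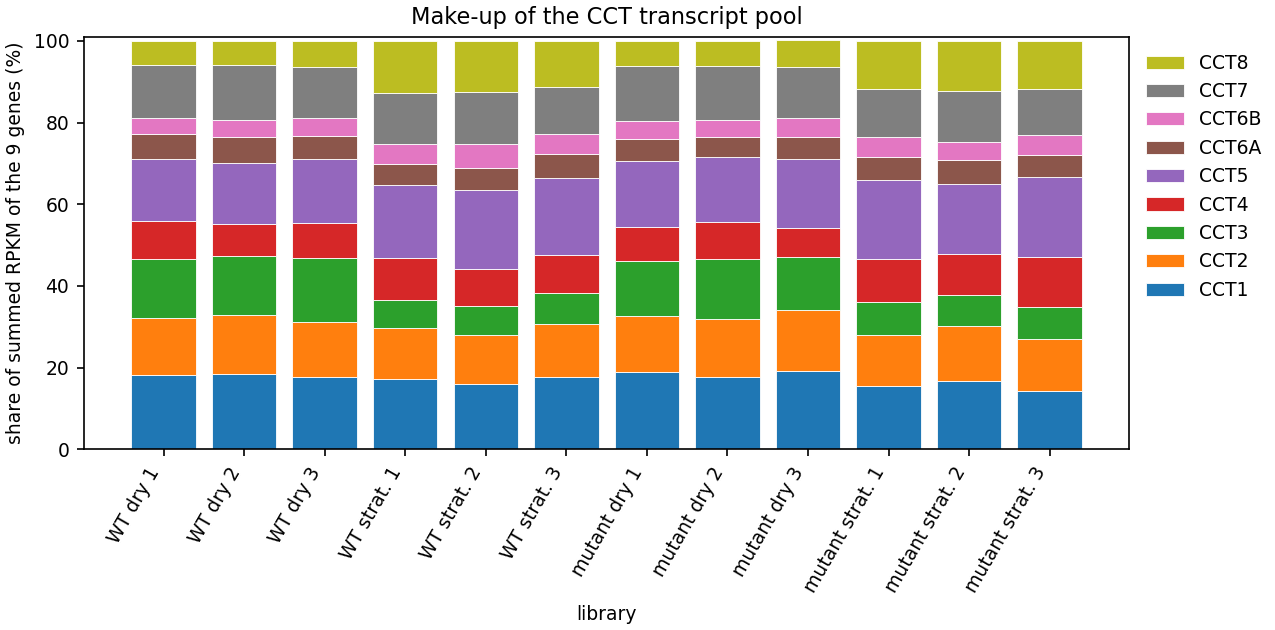
Share of each subunit gene in the summed RPKM of the 9 CCT genes (%), 1 bar for each of the 12 libraries (WT, wild-type; mutant, mutant-labelled; strat., stratified). The CCT8 segment is about 6% in dry and 11.4% to 12.7% in stratified libraries, and the CCT3 segment is 12.9% to 15.8% in dry and 6.91% to 8.06% in stratified ones.

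Each ring holds a single CCT6 subunit, which either copy can encode. CCT6A made up 60.2%, 60% and 54.8% of the RPKM of the pair in wild-type dry libraries and 49.6%, 48.9% and 54.0% in wild-type stratified ones. In mutant-labelled seeds CCT6A made up 55.8%, 54.2% and 53.7% dry and 54.1%, 58.3% and 52.8% stratified. The wild-type dry libraries all lay above the stratified ones, while the mutant-labelled groups overlapped. The mean difference between stratified and dry seeds, with stage permuted within genotype, was -3.49 percentage points (exact two-sided permutation p = 0.11, of 400 arrangements, smallest possible p 0.005), made up of -7.52 points in wild-type and 0.538 points in mutant-labelled seeds. Without mutant-labelled stratified library 2, whose 58.3% was the highest stratified value, the difference was -4.29 points (exact permutation p = 0.02). Between genotypes the share differed by 0.21 points (exact permutation p = 0.95), from -3.82 points in dry and 4.24 points in stratified seeds. These were the 2 tests made on the pair over all 12 libraries. Each was repeated with 1 library left out at a time, and the exact permutation p of 0.02 came from such a repeat. Whether the response differs between genotypes was not tested.

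**Figure D4:**
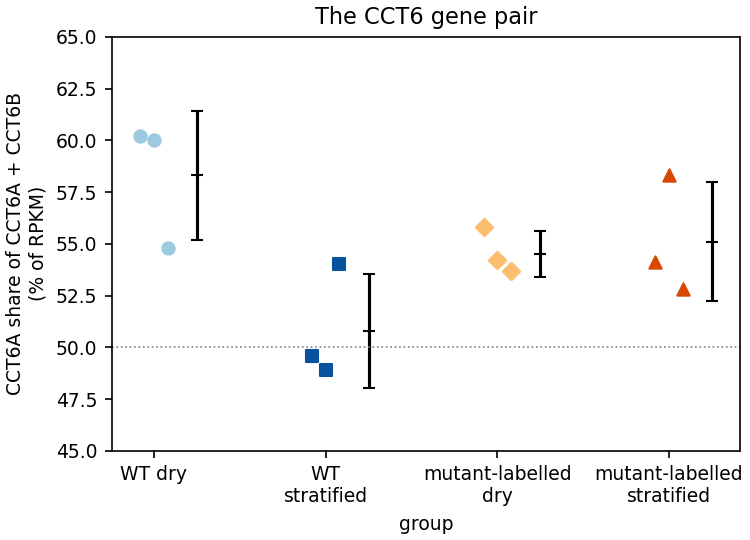
Share of CCT6A in the RPKM of CCT6A plus CCT6B (%) by library; coloured points are the 3 libraries of a group, black bars the mean ± SD, the dotted line marks 50%, and the vertical axis starts at 45%. Wild-type dry libraries lie at 54.8% to 60.2% and wild-type stratified ones at 48.9% to 54.0%, and the mutant-labelled groups overlap.

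No CCT subunit passed the test between the genotypes. In dry seeds all 9 members had a lower mean in mutant-labelled libraries, with log2 differences from -0.08 ± 0.29 (CCT5) to -0.34 ± 0.29 (CCT6A), and none passed the test, where 0.0462% of all genes did. The median of the members was -0.15 beside -0.07 for all genes tested. With ribosomal RNA left out these medians were -0.00 and 0.02. CCT2, CCT3 and CCT6A did not overlap between the genotypes, where 21.3% of all genes were lower in mutant-labelled libraries without overlap; for CCT3 the highest mutant-labelled library, at 27.4 RPKM, lay just under the lowest wild-type one, at 29.1 RPKM. The lowest p of a member was 0.248 before adjustment (limma adjusted p = 1).

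In stratified seeds the log2 differences ran from -0.14 ± 0.27 (CCT4) to -0.51 ± 0.29 (CCT6B), with a median of -0.38 beside -0.19 for all genes, and the libraries overlapped for all 9, where 3.62% of all genes were lower without overlap. None passed the test, where 0.211% of all genes did, and the lowest p was 0.0981 before adjustment (CCT6B, limma adjusted p = 0.354). The signs of these differences depended on scaling: with ribosomal RNA left out, 4 of the 9 were above 0 and the median was -0.06. In the 8 libraries with under 10% ribosomal RNA, a set chosen after seeing the data, the log2 differences ran from -0.70 to -0.18. Their median was -0.39 beside 0.06 for all genes. This set leaves a single mutant-labelled stratified library, assumed to vary like the other groups, so effect sizes alone are given. That library, number 2, also had the highest seed maturation level of its group, and stood at 966 RPKM for HSP70-4 and 195 RPKM for HSP90-1, against 162 and 104 RPKM and 28.5 and 16.7 RPKM in libraries 1 and 3.

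For no member did the response to stratification pass the test of a difference between genotypes. The interaction ran from -0.37 ± 0.41 (CCT6B) to 0.10 ± 0.39 (CCT4), was below 0 for 6 members and above 0 for 3, and had a lowest p of 0.374 before adjustment (limma adjusted p = 0.805), where 0.0264% of all genes passed. For CCT8 it was -0.26 ± 0.42 and for CCT3 0.08 ± 0.40. Standard errors were 0.39 to 0.43, so differences in response of the size seen here were not detectable.

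Among the helpers of CCT, prefoldin, the jawed hexamer that hands nascent actin and tubulin to the chaperonin, also rose. All 6 subunit genes passed as higher in both genotypes, with a median log2 change of 1.75 in wild-type and 1.38 in mutant-labelled seeds. Of all genes tested, 49.8% rose in wild-type and 43.4% in mutant-labelled seeds, beside which the counts in all lists below stand too. PFD1 stood apart at 1.91, 1.64 and 1.92 RPKM in wild-type dry and 64.8, 98.0 and 24.3 RPKM in wild-type stratified libraries, a log2 change of 4.28 ± 0.38 (limma adjusted p = 5.35e-08). PFD2, PFD3, PFD4, PFD5 and PFD6 rose by 1.5 to 1.99. In mutant-labelled seeds PFD2 (0.73 ± 0.30, limma adjusted p = 0.047) and PFD4 (0.78 ± 0.32, limma adjusted p = 0.0445, libraries overlapping) were near the threshold and lost the call in 15 and 14 of 24 alternatives. The median of all genes tested was 0.50 in mutant-labelled seeds.

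The phosducin-like proteins PLP3A and PLP3B, which act with CCT in the folding of beta-tubulin, both rose in wild-type seeds, by 1.77 ± 0.31 and 1.46 ± 0.34 on the log2 scale. In mutant-labelled seeds PLP3A rose (1.12 ± 0.31) and PLP3B was at 0.56 ± 0.34 (limma adjusted p = 0.166). The tubulin-folding cofactors take tubulin over from CCT and join the alpha and beta chains. Of 5 cofactor genes 4 rose in wild-type seeds, TFCC by 2.11 ± 0.27, TFCA by 1.45 ± 0.30, TFCE by 1.38 ± 0.33 and TFCD by 0.75 ± 0.23, while TFCB was at -0.01 ± 0.33. In mutant-labelled seeds TFCC (1.68 ± 0.27) and TFCD (1.00 ± 0.23) rose, TFCE was at 0.76 ± 0.33, TFCA at 0.32 ± 0.30 and TFCB at -0.55 ± 0.33. The mutant-labelled count of 2 was 4 without mutant-labelled stratified library 3, and also once ribosomal RNA was taken out. Of all genes, 8208 of 15125 and 9552 of 15142 passed as higher in mutant-labelled seeds under those alternatives. A count of 2 of 5 is near the share of all genes that rose in mutant-labelled seeds, 43.4%.

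Most of the tubulin genes tested rose, where 49.8% of all genes rose in wild-type and 43.4% in mutant-labelled seeds. Of 6 alpha-tubulin genes 5 rose in each genotype, with medians of 2.68 and 1.75. TUA6 went from 0.508, 0.495 and 0.257 RPKM in wild-type dry to 158, 195 and 50.5 RPKM in wild-type stratified libraries, a log2 change of 6.37 ± 0.42. TUA4 (3.63 ± 0.55), TUA2 (2.75 ± 0.53), TUA5 (2.61 ± 0.29) and TUA3 (1.96 ± 0.30) rose as well in wild-type seeds, and TUA1 was at -0.51 ± 0.27 (limma adjusted p = 0.104). The mutant-labelled count was 3 with each library centred on its median gene, and also without mutant-labelled stratified library 1 or 2, where TUA2 and TUA4 no longer passed. Under those alternatives, in that order, 4981 of 15145, 5254 of 15007 and 5550 of 14867 genes passed as higher in mutant-labelled seeds. Of 8 beta-tubulin genes tested, 8 rose in wild-type and 7 in mutant-labelled seeds, with medians of 2.74 and 1.78; the mutant-labelled count was 5 to 8 over the alternatives, and TUB7 (1.18 ± 0.45, libraries overlapping) lost its wild-type call in 9 of 24. TUB4 (4.71 ± 0.30), TUB3 (3.50 ± 0.42) and TUB2 (3.22 ± 0.36) rose most in wild-type seeds. The gamma-tubulin genes TUBG1 (1.81 ± 0.30) and TUBG2 (1.57 ± 0.28), whose product nucleates microtubules, rose in both genotypes.

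Actin changed less evenly. Of 8 actin genes 5 were tested and 3 rose in wild-type seeds, ACT1 by 2.28 ± 0.34, ACT11 by 1.88 ± 0.37 and ACT7, the most abundant, by 0.99 ± 0.30. ACT7 stood at 79.8, 71.5 and 73.9 RPKM in wild-type dry and at 155, 156 and 140 RPKM in wild-type stratified libraries. In mutant-labelled seeds ACT1 (1.37 ± 0.34) and ACT7 (1.26 ± 0.30) rose, and the count was 4 with ribosomal RNA left out. With it left out, 9552 of all 15142 genes passed as higher in mutant-labelled seeds. Counts of 3 and 2 of 5 are near the shares of all genes that rose, 49.8% and 43.4%. ACT2 (0.55 ± 0.35) and ACT8 (-0.48 ± 0.28) did not pass in wild-type seeds. For ACT8 the wild-type stratified libraries lay below the dry ones without overlap. Over the alternatives up to 1 actin gene passed as lower in each genotype. Several tubulin, actin and HSP genes have close copies between which reads could be split, so single values within these families are uncertain.

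Chaperonins of the organelles, relatives of CCT with rings of a simpler make-up, also rose. The mitochondrial genes HSP60-2 (3.26 ± 0.32), HSP60 (2.52 ± 0.34), HSP60-3A (2.26 ± 0.33) and the lid CPN10 (3.38 ± 0.34) all rose in wild-type seeds, and 4 of 4 rose in mutant-labelled seeds, with medians of 2.89 and 2.35. In the plastid list 7 of 7 rose in both genotypes, with medians of 2.45 and 2.16, and CPN60B1 (3.61 ± 0.41), CPN20 (2.66 ± 0.33) and CPN60B2 (2.64 ± 0.49) rose most in wild-type seeds. The CCT medians were 2.15 and 2.07, and no test of a difference between lists was made. In mutant-labelled seeds CPN60A2 (0.85 ± 0.35, limma adjusted p = 0.0454, libraries overlapping) and CPN60B4 (0.90 ± 0.35, limma adjusted p = 0.0336) were near the threshold, and the plastid count was 5 to 7 over the alternatives.

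The general cytosolic chaperones HSP70, known in mammals to pass clients to CCT, and HSP90 moved in both directions. In wild-type seeds 6 of 9 rose, led by HSP70-3 (3.94 ± 0.37), HSC70-1 (2.91 ± 0.40) and HSP90-3 (2.41 ± 0.32). The heat-inducible members HSP70-5 (-5.67 ± 0.50), HSP90-1 (-4.27 ± 0.62) and HSP70-4 (-2.22 ± 0.63) fell. In mutant-labelled seeds 6 rose and 2 fell, with HSP70-4 at -1.13 ± 0.63. Of all 15145 genes tested, 2862 passed as lower in wild-type and 2308 in mutant-labelled seeds. HSP70-5 was the only gene of these lists to differ between genotypes in stratified seeds: it stood at 7.08, 5.84 and 21.9 RPKM in wild-type and at 48.0, 183 and 37.6 RPKM in mutant-labelled stratified libraries (log2 difference 2.70 ± 0.50, limma adjusted p = 0.0287), a call lost in 7 of 24 alternatives, among them leaving out wild-type stratified library 1 or 2 or any mutant-labelled stratified library, with adjusted p up to 0.178.

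Of the genes tied to CCT by its other known roles, the KNOX genes STM (1.99 ± 0.28) and KNAT1 (1.67 ± 0.22), whose proteins move between meristem cells, rose in wild-type seeds from under 1 RPKM. In mutant-labelled seeds KNAT1 (1.09 ± 0.22) and STM (0.85 ± 0.28) rose, and STM lost the call in 5 of 24 alternatives, among them leaving out library 1 of mutant-labelled dry or of mutant-labelled stratified seeds. In human cells CCT folds subunits of the TOR kinase complex. None of the 3 genes TOR (-0.37 ± 0.24), RAPTOR1B (-0.52 ± 0.27) and LST8-1 (0.28 ± 0.27) passed in wild-type seeds, nor in mutant-labelled seeds. Their calls depended on scaling. With ribosomal RNA left out 1 of the 3 rose in each genotype, where 9216 of all 15142 genes rose in wild-type and 9552 in mutant-labelled seeds. With median centring or TMM-style factors all 3 passed as lower in each genotype. With median centring 5561 of all 15145 genes passed as lower in wild-type and 5121 in mutant-labelled seeds. With TMM-style factors 5912 and 5376 did.

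**Figure D5:**
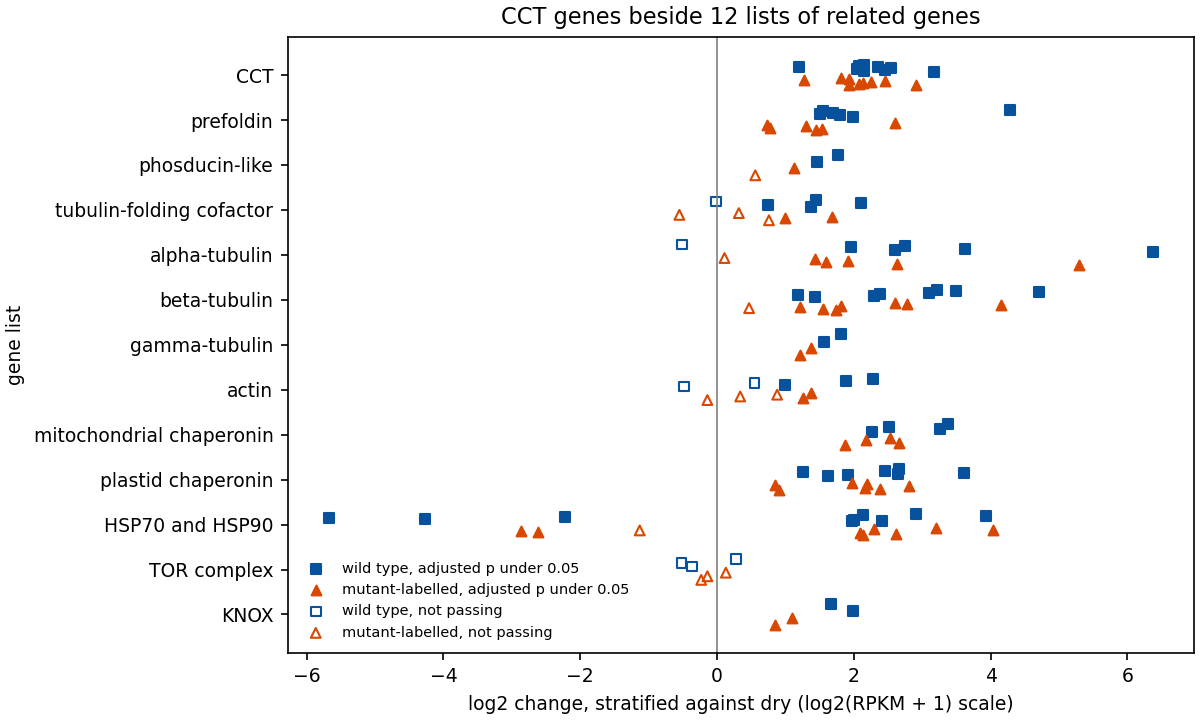
Log2 change of each gene, stratified against dry (log2(RPKM + 1) scale), for CCT and 12 lists of related genes; filled symbols passed the test (limma adjusted p under 0.05), open symbols did not, squares are wild-type and triangles mutant-labelled seeds. The 9 CCT genes lie between 1.20 and 3.17, tubulins spread up to 6.37, and HSP70 and HSP90 genes lie on both sides of 0.

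Across the 12 libraries the 36 pairs of members correlated at r from 0.970 to 0.998 on the log2(RPKM + 1) scale, with a median of 0.992. These values span both stages, and dry and stratified libraries form separate clusters; over the 6 stratified libraries alone, which differ in ribosomal RNA, r ran from 0.862 to 0.999 with a median of 0.958. Such likeness was common: 3253 of 8819 genes with a mean of at least 5 RPKM had a mean r over 0.9 with the members over 12 libraries, and 1910 over the 6 stratified ones. The genes outside the family with the highest mean r over 12 libraries were PAB8 (0.9938), RH25 (0.9936), ATG2 (0.9935, here AT3G51800, a metallopeptidase M24 family protein), FOLD4 (0.9934), AT3G20820 (0.9933), HDT2 (0.9933), AAC1 (0.9930), PYRD (0.9930), PHS2 (0.9930) and AT5G14050 (0.9930). Members with the mean r to the other 8 most exceeded by outside genes were CCT3, exceeded by 1109, and CCT4, by 504, while CCT2 was exceeded by 2. Over the 6 stratified libraries the order was another: CCT4 was exceeded by 1345 and CCT1 by 567, but CCT3 by 95, CCT2 by 52, CCT8 by 16 and CCT7 by 11.

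The responses of members with and without a site II element were set side by side, and the difference was not tested. The 6 genes with a site II element had log2 changes from 1.20 to 3.17 in wild-type seeds, with a median of 2.26, and the 3 without one (CCT2, CCT6B and CCT7) from 2.07 to 2.45, with a median of 2.15. CCT8 and CCT3, at the ends of the range, both carried one. In mutant-labelled seeds the medians were 2.19 with and 1.93 without.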

How the data were processed

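Per the labels' protocols, Trizol-extracted RNA was enriched for poly(A) transcripts and built into strand-specific libraries. The authors deposited 1 table of RPKM values for 32833 loci; STAR, DESeq2 and the TAIR10 build appear in the submitters' processing notes without roles. How reads were counted, by strand or across close gene copies, is not given in the sources used here.

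Groups and replicate numbers came from the sample titles and labels. Of 94891 values under 2 RPKM, 99.32% were whole reads within 0.05 reads once scaled by exon length, which gave the depth; the values remain RPKM, so no count test was used. Values were tested as log2(RPKM + 1), which understates changes of low genes, with limma 3.58.1 in R 4.3.3: 4 group means over 12 libraries, a mean-variance trend, 8 residual degrees of freedom, a minimum of 1 RPKM in 3 or more libraries (15145 genes, all 9 members among them), two-sided p adjusted by Benjamini-Hochberg over all genes tested, threshold 0.05. The fit was tested on simulated data. Replicates were compared first, and none agreed within sampling noise. Sequences, positions and motif counts came from the TAIR10.1 genome and RefSeq annotation, read in Python 3.11.15; 32548 loci of the table were found there.

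The members, the 12 lists of related genes (63 genes) and the 4 marker lists were chosen with earlier results of these data known. Named were all members, up to 3 passing genes of each list and direction with the largest wild-type change, every gene of lists of up to 6, and the 10 genes most like the members. Alternatives changed the pseudocount, filter, scaling, covariates, block and libraries.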

Additional observations from a re-analysis of the deposited data

How the results depend on the processing

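All 9 members rose after stratification in both genotypes under each of 24 alternatives (216 of 216 values in each genotype kept direction and call); the log2 change ranged from 0.43 to 3.44 in wild-type (highest limma adjusted p = 0.0144) and from 0.68 to 3.31 in mutant-labelled seeds (highest limma adjusted p = 0.00832). The lowest values were those of CCT3. Many other genes rose under these alternatives too. With quantile normalization 5560 of 15145 genes passed as higher in wild-type and 4904 in mutant-labelled seeds. With ribosomal RNA left out these counts were 9216 and 9552 of 15142. The median of all genes fell from 0.64 to 0.02 in wild-type seeds with TMM-style factors and to -0.01 with quantile normalization, where the members had medians of 1.37 and 1.52. With ribosomal RNA left out, the members had medians of 2.38 in wild-type and 2.46 in mutant-labelled seeds. Replicate numbers did not pair the libraries: deviations of same-numbered libraries correlated at -0.315 to 0.197. With the replicate number as a block, 9 and 9 members rose and 0 passed in the other contrasts, while 304 instead of 32 genes passed between genotypes in stratified seeds. Without wild-type stratified library 3 that number was 4469, and 2332 genes passed the interaction, in each case with 0 members among them. Between genotypes in stratified seeds the members then ran from -0.77 to -0.37, with a median of -0.59 beside -0.30 for all genes. Their lowest limma adjusted p there was 0.0576, just over the threshold. In the libraries under 10% ribosomal RNA, an alternative added after seeing the data, the mutant-labelled stratified group held 1 library. Its spread is taken from the other groups, so a p-value cannot measure it, and effect sizes alone are given. Between genotypes in stratified seeds that fit marked 4 members as lower, and many other genes too. These marks are not read as results. The 4 stood at -0.39 (CCT1), -0.53 (CCT5), -0.70 (CCT6B) and -0.43 (CCT8). The median of all 9 members was -0.39 beside 0.06 for all genes. Signs of genotype differences that did not pass turned with scaling. In dry seeds they were at or above 0 with quantile normalization for CCT1 (0.03), CCT2 (0.02) and CCT5 (0.09), with TMM-style factors for CCT5 (0.00), with ribosomal RNA left out for CCT5 (0.06) and CCT8 (0.01), with it as a factor for CCT1 (0.00), CCT5 (0.03), CCT6B (0.00) and CCT8 (0.03), and in the libraries under 10% for CCT5 (0.02). In stratified seeds they were above 0 with quantile normalization for CCT2 (0.02), CCT3 (0.06), CCT4 (0.14) and CCT6A (0.01), with ribosomal RNA left out for CCT2 (0.03), CCT3 (0.08), CCT4 (0.17) and CCT6A (0.04), with TMM-style factors for CCT3 (0.03) and CCT4 (0.12), and with median centring for CCT4 (0.04). The interaction turned for CCT2 with TMM-style factors (0.04), quantile normalization (0.00) and ribosomal RNA left out (0.03), and in the libraries under 10% for CCT3 (-0.01) and CCT4 (-0.07). Leaving out 1 library at a time turned the sign of CCT5 in dry seeds (range -0.14 to 0.02), of CCT4 (-0.37 to 0.01) and CCT6A (-0.44 to 0.00) in stratified seeds, and of the interaction of CCT2 (-0.34 to 0.10), CCT3 (-0.11 to 0.31), CCT4 (-0.13 to 0.26), CCT6A (-0.10 to 0.34) and CCT7 (-0.48 to 0.05); none of these passed. The CCT6A share of the pair ranged from -4.38 to -2.92 points for stratified minus dry, with exact permutation p = 0.02 without mutant-labelled stratified replicate 2, and from -0.685 to 0.995 points between genotypes. The cause of these turns was not tested. Depth limited the members little, since their lowest value rested on 233 reads.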
